A study of Homo sapiens with 3 samples.

Results

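Desmosomes are button-like junctions that hold neighbouring epithelial cells together, and 10 genes for their components are described here in 3 cell lines of hepatocellular carcinoma (HCC). The genes were taken by symbol from the deposited lists: the desmosomal cadherins DSG2, DSG3, DSC2 and DSC3, the armadillo proteins JUP, PKP1, PKP2, PKP3 and PKP4, and the plakin DSP. They are 10 of the 16149 genes listed in any library, with a value of 0 for a gene that a library does not list. All 10 were listed in subclone 1, 9 in subclone 2 and 8 in parental cells. Of all genes, 14900 were listed in subclone 1, 14931 in subclone 2 and 14703 in parental cells. The members missing from a library were DSC3 and PKP1, which had at most 5 reads in any library. In this study mRNA was sequenced from 3 cultured lines with 1 library each. The parent is HCCLM3 by its label, given there a low ability to metastasise, while the methods call the parental line HCCLM3-R, a derivative with red fluorescent protein and a high metastatic potential. By its label subclone 1 metastasises more and to the lung, while subclone 2 reaches both lung and celiac lymph nodes. The methods describe subclones as cells grown out of single cells by limiting dilution, taken from lung or lymph node metastases of HCCLM3-R xenografts in nude mice. By this description each subclone would be 1 clone, but the clone behind each library is not named in the sources used here. All 3 lines were grown in DMEM medium, and no treatment was given in the labels.

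In a desmosome the cadherins of facing cells, the desmogleins (DSG) and desmocollins (DSC), bind each other across the intercellular space. Inside the cell their tails are bound by the armadillo proteins plakoglobin (JUP) and the plakophilins (PKP), which in turn hold desmoplakin (DSP), and desmoplakin anchors the keratin filaments. Simple epithelia such as liver mainly use DSG2 and DSC2, whereas DSG3, DSC3 and PKP1 are typical of stratified squamous epithelium. Plakoglobin is shared with the adherens junction, where it stands beside its relative β-catenin.

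For 1 member, DSC2, the study lists a pair of primers for real-time PCR. They are shown with their product because they fix which part of the DSC2 mRNA such an assay reads. By real-time PCR the paper picked genes up-regulated past a set fold over the parental cells in most monoclonal lines. DSC2 was not among the genes picked.
DSC2 forward primer: ACACGGCCCAAAACTATACCA
DSC2 reverse primer: CTCACGATCTACAGGACGAGTA
DSC2 product, 5′ to 3′ on the mRNA strand: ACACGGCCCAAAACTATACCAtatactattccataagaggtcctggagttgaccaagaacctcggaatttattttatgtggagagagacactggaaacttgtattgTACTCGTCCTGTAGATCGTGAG
The capitals mark the forward primer and the reverse complement of the reverse primer. Both primers matched all 3 DSC2 transcripts of the GENCODE annotation without mismatch, and neither matched a transcript of another gene, the related DSC3 included. The product has 128 bases and lies within 1 coding exon, exon 5 in 2 of the transcripts and exon 6 in the other, at chr18:31089457-31089584 on the minus strand of GRCh38. The RPKM of the gene, in contrast, gathers reads over a length recovered as 5257 bases. The principal DSC2 transcript of GENCODE has 12325 bases, so which part of it was counted is not known.

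The promoters of JUP, DSG2 and DSC2 are shown because the mRNA of these 3 members was higher in both subclones than in parental cells. Each line holds the 250 bases before the gene start in RefSeq on GRCh38.p14, while the labels name hg19 for the expression values. The RefSeq starts lie inside the genes as GENCODE places them, so that 220 of the 250 bases for JUP, 134 for DSG2 and 101 for DSC2 are within the GENCODE gene. RefSeq gives 2 starts each for JUP and DSC2, and the one listed first was taken. Capitals mark GGGCGG, the GC box bound by SP and KLF factors, and CAGGTG, the E-box form bound by SNAI and ZEB factors, on either strand.
JUP, chr17:41786712-41786961, minus strand: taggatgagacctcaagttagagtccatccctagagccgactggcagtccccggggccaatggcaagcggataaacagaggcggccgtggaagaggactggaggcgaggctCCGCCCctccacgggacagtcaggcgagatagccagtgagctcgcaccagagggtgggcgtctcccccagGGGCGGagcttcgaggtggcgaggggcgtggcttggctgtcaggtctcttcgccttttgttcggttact
DSG2, chr18:31497927-31498176, plus strand: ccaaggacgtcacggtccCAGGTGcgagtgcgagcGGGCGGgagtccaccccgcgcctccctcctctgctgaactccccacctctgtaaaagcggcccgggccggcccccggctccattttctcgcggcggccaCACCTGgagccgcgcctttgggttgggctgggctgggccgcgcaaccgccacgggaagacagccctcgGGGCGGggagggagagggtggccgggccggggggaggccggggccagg
DSC2, chr18:31102422-31102671, minus strand: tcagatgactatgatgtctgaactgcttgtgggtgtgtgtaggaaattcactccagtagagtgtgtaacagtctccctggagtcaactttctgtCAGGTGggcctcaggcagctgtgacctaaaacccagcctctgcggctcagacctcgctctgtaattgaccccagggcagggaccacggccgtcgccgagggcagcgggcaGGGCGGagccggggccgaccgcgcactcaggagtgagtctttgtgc
GGGCGG or its reverse complement CCGCCC was found in 2 places in the JUP promoter, in 2 in the DSG2 promoter and in 1 in the DSC2 promoter, and 42.6% of the 35116 promoters of this length held it. Both matches in JUP lie within the GENCODE gene. CAGGTG or its reverse complement CACCTG was found in 2 places in DSG2, in 1 in DSC2 and in none in JUP, against 17.5% of all promoters. DSP, whose mRNA differed little between the lines, held 7 matches of the first motif, some overlapping, and 2 matches of the second. PKP4, whose mRNA also differed little, held 3 matches of the first motif, and PKP1, with hardly any reads, held 1. DSC3 and DSG3 held neither motif. Promoters of 8 members matched the table, and PKP2 and PKP3 had no entry. The TATA box letters TATAAA were in none of the 8 and in 10.7% of all promoters. The AP-1 motif TGANTCA was in none of the 8 and in 6.57% of all promoters. AACCGGTT, bound by grainyhead-like factors, was in none of the 8 and in 0.117% of all promoters. A match of letters is a description and not a shown site of binding.

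The levels are given in RPKM, reads scaled to the length of the gene and to the reads of the library, so that genes can be compared per length. The 3 libraries held 4488825 to 4725150 reads, as recovered from the RPKM themselves. The 95% intervals are exact Poisson intervals for a level and exact Clopper-Pearson intervals for a ratio. Where no read was found the limit given is 3 reads, a one-sided bound that lies under the upper end of the 2-sided interval. Intervals and limits cover counting error only, since no line had a replicate library and copies of 1 molecule cannot be told apart. For this reason no test between the cell lines was possible, no p-value is given, and an interval of a ratio compares 2 libraries. A lower level in RNA from a whole culture can reflect fewer cells with the mRNA or less of it in each cell, which cannot be told apart here.

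**Figure D1:**
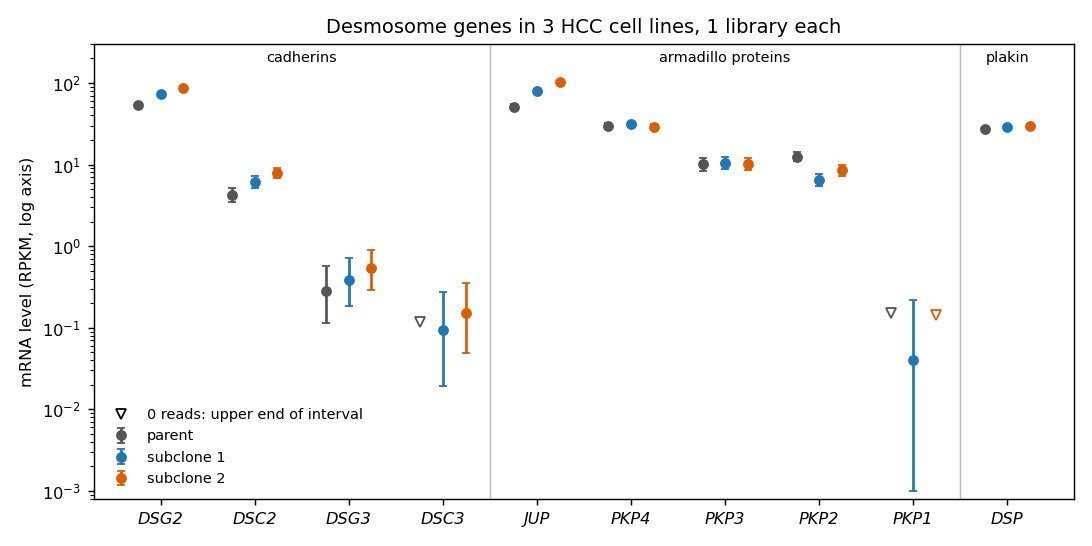
mRNA levels of the 10 desmosome genes in RPKM on a log axis, with 1 point per library and 95% Poisson counting intervals as bars. DSG2 and JUP lie highest, from 51.1 to 102 RPKM, and DSG3, DSC3 and PKP1 stay under 1 RPKM in all 3 libraries.

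DSG2 carried nearly all of the desmosomal cadherin mRNA, and its level was lowest in parental cells and highest in subclone 2. DSG2 (Entrez gene 1829, chromosome 18 from 31498043 to 31549008 on the plus strand of GRCh38, 15 exons) is the desmoglein found in all tissues with desmosomes. Its level was 53.7 RPKM from 1368 reads in parental cells (95% interval 50.9 to 56.6), 72.6 RPKM from 1901 reads in subclone 1 cells (69.4 to 76.0) and 87.3 RPKM from 2342 reads in subclone 2 cells (83.8 to 90.9). These intervals did not overlap. Subclone 1 had 1.35 times the parental level (1.26 to 1.45) and subclone 2 had 1.63 times (1.52 to 1.74). Between the subclones the ratio was 1.20 in favour of subclone 2 (1.13 to 1.28).

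DSC2, the desmocollin of simple epithelia, followed the same order at a level about an order of magnitude below. DSC2 (Entrez gene 1824, chromosome 18 from 31058840 to 31102522 on the minus strand, 16 exons) had 4.24 RPKM from 100 reads in parental cells (3.45 to 5.15), 6.11 RPKM from 148 reads in subclone 1 cells (5.16 to 7.17) and 7.85 RPKM from 195 reads in subclone 2 cells (6.79 to 9.03). The interval of the parent lay just under that of subclone 1, and the intervals of the subclones overlapped. The ratio to the parent was 1.44 in subclone 1 (1.11 to 1.88) and 1.85 in subclone 2 (1.45 to 2.38). Subclone 2 exceeded subclone 1 by 1.29-fold (1.03 to 1.60). DSG2 had 12.7 times the RPKM of DSC2 in parental cells, 11.9 times in subclone 1 and 11.1 times in subclone 2, so their proportion moved less than either level.

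The squamous cadherins were close to the limit of detection. DSG3 (Entrez gene 1830, chromosome 18 from 31447795 to 31478702 on the plus strand), the desmoglein of the deep epidermis and oral mucosa, had 0.280 RPKM in parental cells from 7 reads, 0.390 RPKM in subclone 1 from 10 reads and 0.533 RPKM in subclone 2 from 14 reads. Their intervals overlapped widely, and the ratio of subclone 2 to the parent, 1.90, ran from 0.718 to 5.56. DSC3 (Entrez gene 1825, chromosome 18 from 30990008 to 31042815 on the minus strand) was not listed in parental cells and had 3 reads in subclone 1 and 5 reads in subclone 2, at 0.0933 and 0.152 RPKM. For DSC3 in parental cells 3 reads are 0.0958 RPKM, and the interval ends at 0.118 RPKM, so no difference was detectable at this depth.

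The desmosomal cadherins lie side by side on chromosome 18, and the order of their levels over the libraries can be read along the cluster. In the order of the RefSeq table they are DSC3, DSC2, DSC1, DSG1, DSG4, DSG3 and DSG2. DSG1, a desmoglein of the upper epidermis that is no member here, had 6, 8 and 10 reads in parental cells, subclone 1 and subclone 2. DSC1 had 0, 5 and 1 reads. Thus 5 of the 7 cluster genes, DSC3, DSC2, DSG1, DSG3 and DSG2, had their lowest value in parental cells and their highest in subclone 2. Only DSC2 and DSG2 did so beyond counting error. The same order was seen in 24.0% of the genes with a mean of at least 1 RPKM, a set without DSC3, DSG1 and DSG3. The RPKM of DSG4 were 0.0622, 0 and 0.291, and these could not be turned into whole reads.

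Genes on either side of the cluster did not share this order throughout. CDH2, which encodes N-cadherin and lies before DSC3, had 43.9 RPKM in parental cells, 58.3 in subclone 1 and 49.0 in subclone 2, highest in subclone 1. Its ratio to the parent was 1.33 in subclone 1 (1.22 to 1.45) and 1.12 in subclone 2 (1.02 to 1.22). TTR, the transthyretin gene next to DSG2, was listed only in subclone 2, from 1 read. B4GALT6, a galactosyltransferase gene beyond it, had 3.61, 4.01 and 4.97 RPKM, in the order of the cadherins. TRAPPC8, a trafficking gene further on, had 13.5, 10.5 and 11.3 RPKM and was thus highest in parental cells. KCTD1, before CDH2 in the list, was also highest in parental cells, at 27.7 RPKM against 18.1 and 20.4.

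**Figure D2:**
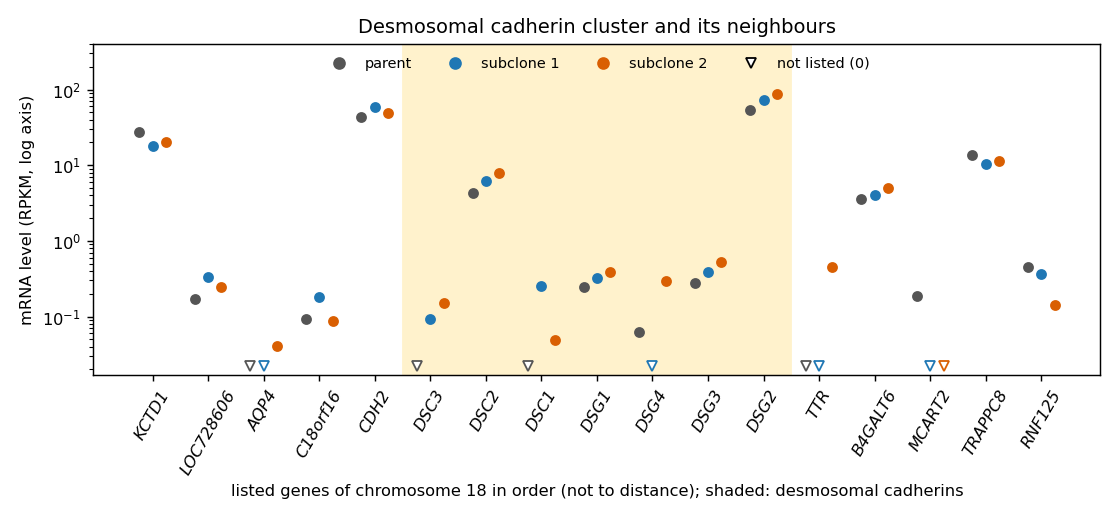
RPKM on a log axis of the 7 desmosomal cadherin genes (shaded) and of the 5 listed genes on each side, in chromosome order and not to distance, with 1 point per library and open triangles for genes not listed. Inside the cluster DSG2 and DSC2 stand far above the others, which stay under 1 RPKM, and CDH2 outside it reaches 43.9 to 58.3 RPKM.

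JUP was the 1 of the 7 members with a mean of at least 1 RPKM to differ by 2-fold between any 2 libraries. Its range of 1.00 on the log2 scale was close to the 0.93 of PKP2, with overlapping intervals, and PKP2 had the wider range when RPKM were divided by ACTB. JUP (Entrez gene 3728, chromosome 17 from 41754604 to 41786931 on the minus strand, 14 exons) encodes plakoglobin, which links the cadherin tails to desmoplakin. Its level was 51.1 RPKM from 805 reads in parental cells (47.7 to 54.8), 79.4 RPKM from 1284 reads in subclone 1 cells (75.1 to 83.9) and 102 RPKM from 1699 reads in subclone 2 cells (97.7 to 107). None of the 3 intervals overlapped another. The ratio of JUP to the parental level was 1.55 for subclone 1 (1.42 to 1.70) and 2.01 for subclone 2 (1.84 to 2.18). With log2 ratios of 0.63 and 1.00 it stood at percentiles 89.9 and 94.7 of the 11370 genes with a mean of at least 1 RPKM. The value in subclone 2 lies at the 2-fold limit, and the gene is under it when RPKM are rescaled to the same sum or divided by ACTB or by the upper quartile, when ratios are centred on their median, or with a pseudocount of 1. Subclone 2 was 1.29-fold above subclone 1 (1.20 to 1.39).

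The neighbours of JUP on chromosome 17 with a mean of at least 1 RPKM moved less in subclone 2. KRT19 and EIF1 on one side had log2 ratios over the parent of 0.37 and 0.14, and LEPREL4 and FKBP10 on the other side had 0.11 and -0.13. Genes with a closely similar pair of log2 ratios over the parent were CELSR2, ENKUR, TRPT1 and CDKL1, at Euclidean distances from 0.017 to 0.035. All had far fewer reads than JUP. In subclone 1 over the parent the ratio intervals of ENKUR, TRPT1 and CDKL1 included 1. CDKL1 had 8, 13 and 17 reads, and its ratio of subclone 2 to the parent, 2.02, ran from 0.826 to 5.40. This likeness rests on 2 ratios from 3 libraries that share the parent and describes these values only.

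Among the plakophilins PKP2 was the exception, since it was lower in both subclones than in parental cells. PKP2 (Entrez gene 5318, chromosome 12 from 32790745 to 32896840 on the minus strand, 13 exons) is the plakophilin of simple epithelia and heart and binds both desmoplakin and plakoglobin. It had 12.5 RPKM from 250 reads in parental cells (11.0 to 14.2), 6.55 RPKM from 134 reads in subclone 1 cells (5.49 to 7.76) and 8.53 RPKM from 179 reads in subclone 2 cells (7.33 to 9.88). The interval of the parent lay above those of the subclones, which overlapped each other. Subclone 1 had 0.522 times the level of the parent (0.420 to 0.646), a log2 ratio of -0.93 at percentile 2.33 of all genes. Subclone 2 had 0.680 times (0.558 to 0.827), a log2 ratio of -0.55 at percentile 8.15. Between the subclones PKP2 was 1.30-fold higher in subclone 2 (1.04 to 1.64). When RPKM were divided by ACTB, PKP2 was also past 2-fold lower in subclone 1 over the parent, at a log2 ratio of -1.06. Of its neighbours on chromosome 12, YARS2 had log2 ratios over the parent of -0.44 and -0.29, DNM1L of -0.12 and 0.05, and ALG10 of -0.83 and -1.15.

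PKP3 and PKP4 had nearly the same level in the 3 libraries. PKP3 (Entrez gene 11187, chromosome 11 from 392614 to 404908 on the plus strand, 13 exons), found in the desmosomes of most epithelia, had 10.1 RPKM in parental cells (129 reads), 10.4 in subclone 1 (136 reads) and 10.2 in subclone 2 (137 reads). Its ratio of subclone 2 to the parent was 1.01, with an interval from 0.787 to 1.29. PKP4 (Entrez gene 8502, chromosome 2 from 158456964 to 158682879 on the plus strand, 22 exons), a relative that occurs in desmosomes and adherens junctions, led the plakophilins in level. It had 29.5 RPKM in parental cells (609 reads), 31.1 in subclone 1 (661 reads) and 29.1 in subclone 2 (632 reads). Its ratios to the parent were 1.06 in subclone 1 (0.945 to 1.18) and 0.986 in subclone 2 (0.881 to 1.10). PKP1 (Entrez gene 5317, chromosome 1 from 201283452 to 201332993 on the plus strand), the plakophilin of squamous epithelium, had 1 read in subclone 1 and none in the other libraries, where the limit of 3 reads is 0.123 RPKM in parental cells and 0.117 RPKM in subclone 2 and the intervals end at 0.151 and 0.143 RPKM.

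DSP, the plakin that ties the plaque to keratin, stayed within narrow bounds. DSP (Entrez gene 1832, chromosome 6 from 7541575 to 7586717 on the plus strand, 24 exons) had 27.4 RPKM from 1195 reads in parental cells (25.8 to 29.0), 29.0 RPKM from 1301 reads in subclone 1 cells (27.5 to 30.6) and 29.6 RPKM from 1363 reads in subclone 2 cells (28.1 to 31.3). All 3 intervals overlapped. The ratio to the parent was 1.06 in subclone 1 (0.979 to 1.15) and 1.08 in subclone 2 (1.00 to 1.17). The log2 ratio of subclone 1 over the parent, 0.08, became -0.05 when RPKM were divided by ACTB, so its sign depends on the scaling.

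**Figure D3:**
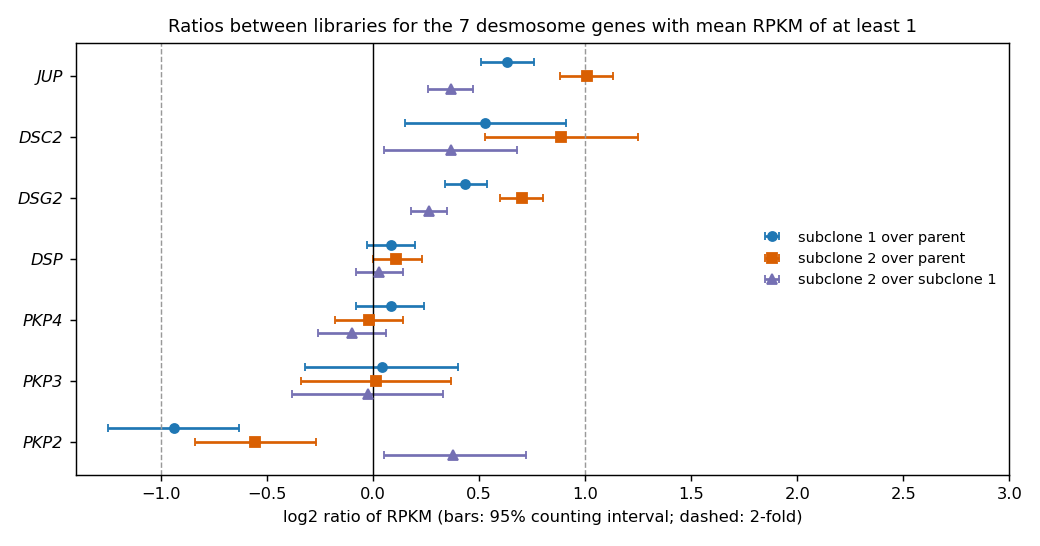
log2 ratios of RPKM between libraries for the 7 desmosome genes with a mean of at least 1 RPKM, with 95% counting intervals as bars and 2-fold marked by dashed lines. JUP, DSC2 and DSG2 lie right of 0 in all 3 comparisons, PKP2 lies left of 0 over the parent, and DSP, PKP4 and PKP3 lie near 0.

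Counted together, 7 of the 10 members had a mean of at least 1 RPKM, as did 11370 of the 16149 genes. No member was past 2-fold in either direction in subclone 1 over the parent, where 4.90% of all genes were higher and 1.82% lower on the log2 scale of RPKM plus 0.1. In subclone 2 over the parent 1 member, JUP, was at least 2-fold higher against 5.33% of all genes, and none was lower against 2.16%. Between the subclones no member passed this fold, as 1.42% of all genes were higher and 1.39% lower in subclone 2. A count of 0 or 1 among 7 is near these shares and is not a result about the members as a group.

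By counting intervals more members differed between libraries, a measure that depends on the reads of a gene. In subclone 1 over the parent the interval lay above 1 for 3 of the 7, DSC2, DSG2 and JUP, and for 20.0% of the 11127 genes with whole reads. It lay below 1 for PKP2 and for 19.0% of all genes. In subclone 2 over the parent it lay above 1 for DSC2, DSG2, JUP and, barely, DSP, against 22.9% of all genes, and below 1 for PKP2, against 17.9%. DSP was not among them when the libraries were rescaled to the same sum or ACTB, centred on the median ratio or divided by the upper quartile. In subclone 2 over subclone 1 the interval lay above 1 for DSC2, DSG2, JUP and PKP2, against 11.6% of all genes, and below 1 for none, against 8.47%. DSP joined those above 1 when RPKM were divided by ACTB or GAPDH.

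The order parent, subclone 1, subclone 2 from lowest to highest was seen in 4 of the 7 members, DSC2, DSG2, JUP and DSP, and in 24.0% of all genes. The 3 intervals of DSP overlapped, and it left this order when RPKM were divided by ACTB, while its log2 ratio between the subclones was -0.00 with ratios centred on the median. The reverse order was seen in none of the 7 and in 17.1% of all genes. The median log2 ratio of the 7 was 0.08 in subclone 1 over the parent, 0.12 in subclone 2 over the parent and 0.26 in subclone 2 over subclone 1. Over all genes the medians were 0.00, 0.04 and 0.03. The first 2 comparisons share the parent library, so an error in that library would enter both.

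**Figure D4:**
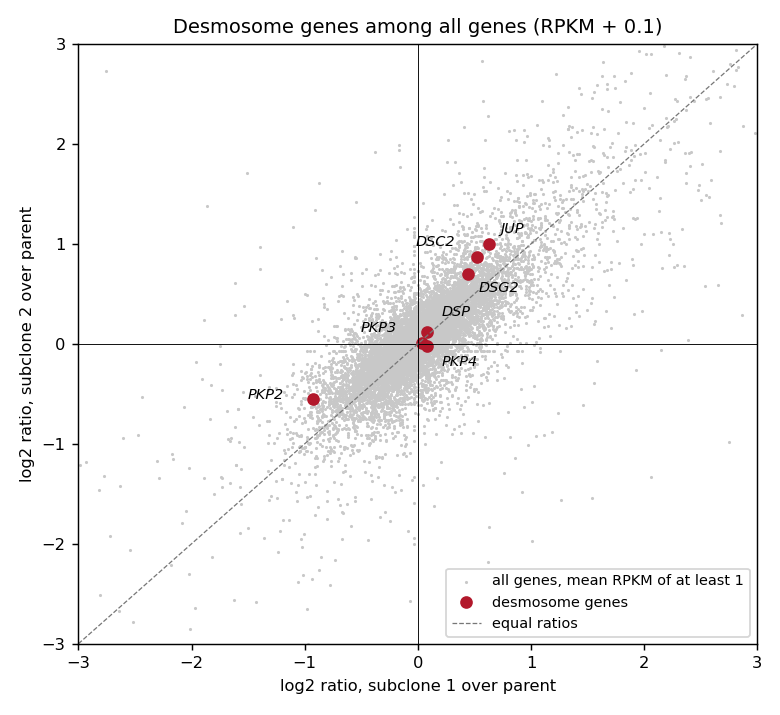
log2 ratios over the parent of RPKM plus 0.1, subclone 1 on the horizontal and subclone 2 on the vertical axis, for all genes with a mean of at least 1 RPKM (grey, 109 of 11370 lie outside the axes) and the 7 desmosome genes among them (red). JUP, DSC2 and DSG2 lie above the line of equal ratios at the upper right and PKP2 at the lower left, while both axes share the parent library.

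The make-up of the desmosome transcripts differed accordingly. Summed over the 10 members, the level was 189 RPKM in parental cells, 236 RPKM in subclone 1 and 276 RPKM in subclone 2, which is 1.25 and 1.46 times the parent. Without JUP and DSG2 the other 8 members summed to 84.0, 83.7 and 86.0 RPKM, so nearly all of the difference between the sums lay in JUP and DSG2. JUP made up 27.1% of the sum in parental cells, 33.7% in subclone 1 and 37.2% in subclone 2. DSG2 made up 28.4%, 30.8% and 31.7%, and the plakophilins together 27.6%, 20.4% and 17.3%. The plakophilin sum itself differed less, with 52.1, 48.1 and 47.8 RPKM, which is 0.923 and 0.917 times the parent in subclone 1 and subclone 2. PKP2 made up 24.1% of the plakophilin RPKM in parental cells, 13.6% in subclone 1 and 17.9% in subclone 2.

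The proportions between partners moved with them. JUP stood at 1.87 times the RPKM of DSP in parental cells, at 2.74 times in subclone 1 and at 3.46 times in subclone 2. For DSG2 over DSP the values were 1.96, 2.50 and 2.94. JUP over PKP2 went from 4.07 in parental cells to 12.1 in subclone 1 and 12.0 in subclone 2. Within a library the order of neighbouring members was not always resolved. In the parent the intervals of DSG2 and JUP overlapped, as did those of PKP4 and DSP and those of PKP2 and PKP3. In subclone 2 the interval of JUP lay above that of DSG2, while the intervals of PKP3, PKP2 and DSC2 ran into each other.

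**Figure D5:**
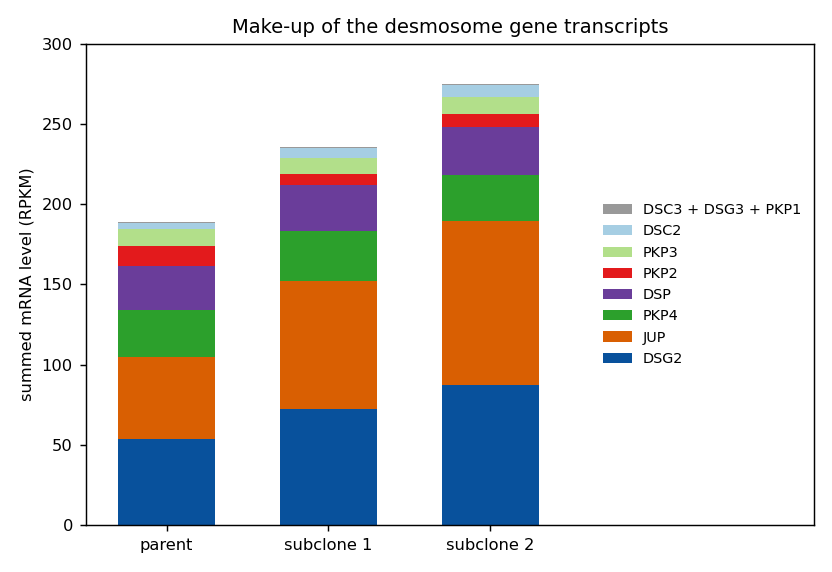
Summed RPKM of the desmosome genes in each library, stacked by gene from DSG2 at the bottom. The bars reach 189, 236 and 276 RPKM, and the parts of DSG2 and JUP grow while those of DSP and PKP4 keep their height.

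Plakoglobin is also a part of the adherens junction, so that list was set beside the desmosome. Of its 17 genes 15 were listed and 14 had a mean of at least 1 RPKM. CDH1, which encodes E-cadherin, was the single gene of the list past 2-fold, with 2.08 RPKM in parental cells, 8.97 in subclone 1 and 12.3 in subclone 2. Its ratios to the parent were 4.31 (3.10 to 6.09) and 5.91 (4.30 to 8.29), so E-cadherin mRNA had the order of JUP, DSG2 and DSC2 with a larger range. CTNNB1, which encodes β-catenin, went the other way, with 109 RPKM in parental cells, 72.1 in subclone 1 and 84.8 in subclone 2. Its ratios were 0.658 (0.594 to 0.730) and 0.774 (0.702 to 0.854). JUP had 0.467 times the RPKM of CTNNB1 in parental cells, 1.10 times in subclone 1 and 1.21 times in subclone 2. The nectin gene NECTIN2, listed as PVRL2, had 59.5, 88.5 and 103 RPKM, and AFDN, listed as MLLT4 and encoding afadin, had 10.4, 16.0 and 13.4 RPKM. The median log2 ratio of this list was 0.20 in subclone 1 over the parent, 0.24 in subclone 2 over the parent and 0.11 between the subclones. CDH3 and CTNND2 were not listed.

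The filaments and anchors on the inner side of the desmosome ranged from 1742 RPKM for KRT8 to under 1 RPKM for KRT23, PPL and EPPK1. Of 8 intermediate filament genes 7 were listed, all but DES, and 6 had a mean of at least 1 RPKM, with median log2 ratios over the parent of 0.10 and 0.17. KRT8 and KRT18, the keratin pair of liver cells, had 1614 to 1742 RPKM and 953 to 1075 RPKM. KRT7, a keratin of bile duct cells, was the 1 gene of this list past 2-fold and was lower in both subclones, with 14.4 RPKM in parental cells, 3.47 in subclone 1 and 6.04 in subclone 2. KRT20 was higher in subclone 2, at 525 RPKM against 341 and 332 in parental cells and subclone 1. KRT19 had 178, 229 and 229 RPKM, and VIM, the vimentin of mesenchymal cells, had 4.45, 5.04 and 5.12 RPKM. Of the 6 other plakins and filament anchors all were listed, 4 with a mean of at least 1 RPKM, and none passed 2-fold. Their median log2 ratios over the parent were 0.23 and 0.25. PLEC, which encodes plectin, had 63.3, 74.7 and 77.9 RPKM in the order parent, subclone 1 and subclone 2. The other plakins with such a mean were DST with 12.9, 15.1 and 14.8 RPKM, MACF1 with 6.04, 5.70 and 5.80 RPKM, and EVPL with 0.846, 1.45 and 1.06 RPKM. The 5 further desmosomal genes held PERP, a membrane protein of desmosomes, at 35.0, 39.2 and 42.4 RPKM, which is 1.12 and 1.21 times the parent in subclone 1 and subclone 2. The other 4, DSC1, DSG1, DSG4 and the corneodesmosin gene CDSN, stayed under 1 RPKM.

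Of 14 transcription factors tied to epithelial junction genes, 10 were listed and 7 had a mean of at least 1 RPKM. ELF3, an epithelial ETS factor, had 64.3 RPKM in parental cells, 96.7 in subclone 1 and 128 in subclone 2, and its ratio of subclone 2 to the parent of 1.99 (1.84 to 2.16) was near that of JUP. ZEB1, a repressor of E-cadherin, was lower in the subclones, with 8.13, 5.15 and 5.53 RPKM. ZEB2, its relative, had 5.21 RPKM in subclone 1 against 2.40 RPKM in subclone 2 and was the 1 gene of the list past 2-fold in subclone 1 over the parent, at 2.60 (2.02 to 3.39), and past it lower between the subclones, at 0.461 (0.362 to 0.585). KLF4, an epithelial zinc finger factor, had 11.6, 11.6 and 17.1 RPKM. The median log2 ratios of the list over the parent were 0.39 and 0.16. SNAI1, with 9.96, 13.4 and 8.73 RPKM, and SNAI2, with 8.23, 10.8 and 7.62 RPKM, were highest in subclone 1. Their ratio intervals over the parent included 1. Subclone 2 was below subclone 1, at 0.653 times for SNAI1 (0.477 to 0.891) and 0.706 times for SNAI2 (0.519 to 0.958). GRHL2, a factor of many epithelia, had 1 read in subclone 1 and none elsewhere, and GRHL3, OVOL1, OVOL2 and TWIST1 were not listed. GRHL1 had a mean under 1 RPKM, from 2, 5 and 12 reads. Its ratio of subclone 2 to the parent, 5.70, ran from 1.27 to 52.4. TP63 also had a mean under 1 RPKM, from 7, 21 and 18 reads. The ratio of TP63 to the parent was 2.92 in subclone 1 (1.20 to 8.13) and 2.44 in subclone 2 (0.974 to 6.92). Of 8 genes for enzymes that act on desmosomal proteins all had a mean of at least 1 RPKM and none passed 2-fold, with median log2 ratios over the parent of 0.15 and 0.11. Among them EGFR, the receptor kinase, had 20.7, 32.9 and 35.6 RPKM, and ADAM17, a sheddase, had 7.30, 11.9 and 9.48 RPKM. GSK3B, a kinase that acts on desmoplakin, had 14.7, 10.5 and 10.8 RPKM, and the kinase gene SRC had 36.9, 44.3 and 45.6 RPKM.

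Marker genes of cell types also differed between the libraries, and their part in the desmosome values was not tested. Of 12 hepatocyte markers 11 were listed, with a summed level of 25.8 RPKM in parental cells, 124 in subclone 1 and 114 in subclone 2, and APOA2 was at 0 in all 3. Of the 8 with a mean of at least 1 RPKM, 6 were past 2-fold higher in subclone 1 and 5 in subclone 2, each over the parent, with median log2 ratios of 2.39 and 1.80. Albumin mRNA (ALB) was 2.46 RPKM in parental cells against 49.5 and 68.8 in the subclones. The fibrinogen genes FGB, with 1.66, 14.5 and 5.60 RPKM, and FGG, with 0.126, 4.80 and 3.60 RPKM, and the apolipoprotein gene APOB, with 0.300, 1.23 and 4.17 RPKM, were also lowest in parental cells. The markers did not move as 1 group, since HNF4A had 11.7, 11.9 and 16.0 RPKM and TF had 5.71, 30.3 and 5.88 RPKM. APOA1, TTR and SERPINA1 stayed under 1 RPKM in all 3 libraries.

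Of 12 squamous markers 6 were listed, and KRT5, KRT1, IVL, LOR, SPRR1B and SPRR3 were at 0. Their sums of 80.5, 44.0 and 47.9 RPKM were mainly SFN, at 68.0, 29.9 and 32.5 RPKM, the 1 of 2 genes with a mean of at least 1 RPKM past 2-fold, and lower in both subclones. The other, KRT10, had 11.2, 13.0 and 14.4 RPKM, and the median log2 ratios were -0.49 and -0.35. Under such a mean, TP63 had 0.317, 0.925 and 0.773 RPKM, while KRT13 went the other way with 0.778, 0.126 and 0 RPKM. Of 8 fibroblast markers 6 were listed, with sums of 15.7, 31.2 and 24.3 RPKM and PDGFRA and PDGFRB at 0. Of the 3 with such a mean 2 were past 2-fold higher in each subclone and 1 was past it lower in subclone 2, with median log2 ratios of 1.24 and 1.05. They went opposite ways, as DCN had 0.773, 4.42 and 2.75 RPKM and LUM had 10.1, 24.0 and 21.0 RPKM, whereas COL3A1 had 4.42, 2.21 and 0.463 RPKM. The 8 blood and endothelial markers summed to 4.62, 11.9 and 5.88 RPKM with CD3E and HBB at 0, and 2 had a mean of at least 1 RPKM, with median log2 ratios of 0.75 and 0.41. PECAM1, with 3.33, 9.81 and 4.46 RPKM, was past 2-fold higher in subclone 1, and LYZ had 1.03, 1.00 and 1.40 RPKM. The 6 cardiac markers stayed under 1 RPKM in sum, with MYH6, MYH7, TNNI3 and ACTC1 at 0 and no gene with a mean of at least 1 RPKM.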

How the data were processed

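Messenger RNA of 3 cultured lines was sequenced, with 1 library per line from a TruSeq kit. The authors deposited RPKM values for genes by Entrez number and symbol, listing genes above 0. The genome build was hg19 per the labels, and the aligner, counter, annotation and handling of strand and shared reads are not given in the sources used here.

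Reads and library totals were recovered from the RPKM, whose values for a gene are whole reads divided by its length and the library total. Relative totals rest on 651 and 623 genes for which libraries held equal reads. Their common step rests on 1626 weakly expressed genes, and 86.0% of these lay on it. Gene lengths were the smallest that made reads whole, provided they lay between 0.5 times the median and 1.5 times the longest GENCODE transcript, and otherwise a multiple of it matching a transcript to 10%. This gave reads to 97.9% of the genes with a mean of at least 1 RPKM, and 95.4% of each total. The recovery was also run on data simulated from the recovered lengths and totals. That run cannot show whether a recovered length falls short of the true one.

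Ratios were log2 of RPKM plus 0.1, which understates the change of low genes, and folds were taken without it. All 10 members are named. Each further list is given by counts and medians. Named from it are up to 4 genes with a mean of at least 1 RPKM and the largest log2 ratio over the parent. Some others are named too, as genes that define the list, bind a motif described here or differ from the rest. Also named are the cadherin locus with 5 listed genes on either side and the 5 genes most like the widest-ranging member, 1 of which is not reported here. Members and lists were chosen with earlier results of these data known, and the neighbours of JUP and PKP2 were added after their values were seen. With 1 library per line no test between lines was made. Gene places came from GENCODE release 29 (GRCh38), gene order from the RefSeq table of GRCh38.p14 and promoters from RefSeq. Alternatives were pseudocounts, scalings, filters and a lower fold. Python 3.11.15, numpy 2.4.6, pandas 2.3.3, scipy 1.17.1 and matplotlib 3.10.9 were used.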

Additional observations from a re-analysis of the deposited data

How the results depend on the processing

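Of 147 log2 ratios of the 7 members recomputed under pseudocounts of 0.01 and 1 and 5 scalings, 138 moved by less than counting error and 9 by more, all of DSG2, JUP or DSP after division by ACTB or GAPDH. No ratio whose interval excluded 0 changed sign. The count of members past 2-fold higher in subclone 2 over the parent, 1 as reported, was 0 with a pseudocount of 1, with libraries rescaled to the same sum, with ratios centred on the median, divided by the upper quartile or divided by ACTB, 2 with no filter on RPKM (DSC3 and JUP, the former from 0 against 5 reads) and 3 at 1.5-fold (DSC2, DSG2 and JUP). For subclone 1 over the parent the count higher went from 0 to 1 at 1.5-fold (JUP), and the count lower from 0 to 1 at 1.5-fold or divided by ACTB (PKP2). The fold of the summed RPKM was 1.14 for subclone 1 over the parent with ACTB, against 1.25, and 1.53 for subclone 2 over the parent with GAPDH, against 1.46. For subclone 2 over subclone 1 it was 1.28 with ACTB and 1.27 with GAPDH, against 1.17. ACTB division moved the median ratio of all genes by -0.13 in subclone 1 over the parent and by 0.12 in subclone 2 over subclone 1, as GAPDH division did in the latter. The share of all genes past 2-fold higher in subclone 2 over the parent, 5.33%, was 3.34% with a pseudocount of 1, 3.08% at a mean of at least 5 RPKM, 9.62% with no filter and 12.7% at 1.5-fold. Rescaling of the counting intervals was added after seeing the data, and it took DSP from the 4 members above 1 in subclone 2 over the parent under 4 of 5 scalings and made it the fifth in subclone 2 over subclone 1 under ACTB and GAPDH. The smallest whole numbers that fit had already been taken as the reads of all members. The equality of 30 of 30 values with them is therefore no check of the reads. No paired analysis was possible because each line has 1 library, and no library could be left out.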
